A study of Cardamine hirsuta with 6 samples.

Results

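First-exon peaks are the stretches of *C. hirsuta* DNA that were bound by ChCUC1 in DNA affinity purification sequencing (DAP-seq) and whose centre lies in exon 1 of a gene. They were taken from the list of reproducible peaks by the gene annotation that goes with it, with every peak kept whose annotation reads exon 1, whatever the number of exons in the gene. There were 292 such peaks among the 1997 reproducible peaks with an annotation row, of 2432 reproducible peaks in all. The other 435 had no row in the copy of the annotation read here and were not used. A gene without an annotated peak below may therefore still hold a reproducible peak. First-exon peaks made up 14.6% of the annotated peaks (95% exact binomial interval 13.1 to 16.2) and 43.5% of the 671 peaks in exons (39.7 to 47.4). They lay in 289 genes, and 215 of the peaks were in genes with an *A. thaliana* match, whose names are used below.

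The samples were 3 of HaloTag-fused ChCUC1 and 3 of HaloTag alone (Halo), which served as the control. Both proteins were incubated with DNA of the Oxford genotype, taken according to the protocol from rosette leaves of plants aged 4 weeks, while GEO's tissue label says seedlings. The DNA, about 5 µg, had been sheared to fragments of 200 to 400 bp. The binding took place in a test tube, on DNA without chromatin proteins but with its cytosine methylation, and all samples share a single source genotype.

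CUC1 is a NAC-domain transcription factor that marks the boundaries between organs and, in leaves with leaflets, acts at the leaf margin. DAP-seq shows where such a protein can bind naked genomic DNA. Most plant genes have their best-known control regions upstream of the start, and exons are transcribed, so a peak there overlaps DNA that also encodes RNA and usually protein.

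Genes with a single exon held 178 of the 292 first-exon peaks (61.0%, 55.1 to 66.6), and the other 114 lay in genes of 2 to 15 exons. In a single-exon gene every exon peak is by definition a first-exon peak. The lengths of exons and the number of single-exon genes in the genome were not used here, so these shares are not set against the amount of DNA that first exons hold. Among the 493 exon peaks of genes with 2 or more exons, 114 were in exon 1 (23.1%, 19.5 to 27.1) and 166 in the last exon (33.7%, 29.5 to 38.0). The annotation counts centres up to 100 bp past a start as promoter-TSS and has a separate category for transcript ends. Both shares depend on these limits, so no preference for either exon can be read from them. The shares are given by the number of exons below. Exon 1 is a smaller part of the exons in genes that have more of them. No expected share was computed, so a lower share in such genes is no result about position. Genes with 2 exons had 55 of 124 exon peaks in exon 1 (44.4%, 35.4 to 53.5). Genes with 3 exons had 18 of 80 in exon 1 (22.5%, 13.9 to 33.2) and 36 in the last exon (45.0%, 33.8 to 56.5). In genes with 4, 5, 6 and 7 exons the share in exon 1 was 12.5%, 19.2%, 26.9% and 28.1%, on 26 to 56 exon peaks each. Their intervals overlap, so neither a fall nor a rise across these groups can be told. Genes with 8 or more exons had 8 of 123 in exon 1 (6.50%, 2.85 to 12.4).

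**Figure D1:**
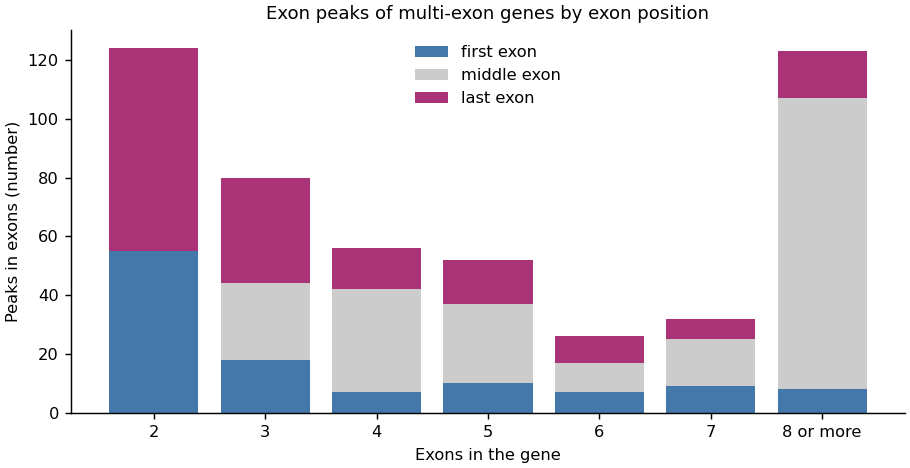
Number of peaks in exons (vertical axis) by the number of exons in the gene (horizontal axis), for genes with more than 1 exon, split into first, middle and last exon. Genes with 2 exons have 55 peaks in the first and 69 in the last exon, and genes with 8 or more exons have 8 in the first and 16 in the last of 123.

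By the rule that picked them, first-exon peaks lay behind the gene start and within exon 1, so the length of that exon bounds their distance. The distance from the gene start to the peak centre had a median of 521 bp (95% interval over peaks 451 to 582), with the middle 50% of peaks between 320 and 846 bp. In later exons the median was 1278 bp (1194 to 1397). By distance, 139 peaks lay at 101 to 500 bp, 100 at 501 to 1000 bp, 41 at 1001 to 1500 bp and 12 beyond. The numbers were flat over the first 4 steps of 100 bp, with 34, 35, 34 and 36 peaks, and then fell to 11 peaks at 901 to 1000 bp. The lower end of 101 bp comes from the annotation, which places centres up to 100 bp downstream of a start in the category promoter-TSS (up to 1 kb upstream to 100 bp downstream). The peaks on either side of that limit had overlapping values. Those just inside, at 101, 103 and 104 bp, had fold enrichments over the Halo control of 2.56, 3.96 and 2.47, and those just outside, at 100, 100 and 99 bp, had 2.96, 3.22 and 4.47.

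The nearest was at *LTL1*, a lipase of the GDSL family, with a centre 101 bp from the start. It was also the sole member called in just 1 of the 3 lists from single libraries, with a fold enrichment of 3.18 there. The second, at 103 bp, was at AT1G05250, a class III peroxidase, and the third was at CARHR181080, which has no match. The farthest were those of *GSO2* at 2446 bp and *CEPR1* at 2292 bp, both receptor kinases, and CARHR151000 at 2031 bp. In single-exon genes the median distance was 580 bp (518 to 661), against 430.5 bp (383 to 489) in genes with more exons. The intervals do not overlap. First exons of multi-exon genes end at an intron, and their lengths were not measured, so distance and exon length cannot be told apart.

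**Figure D2:**
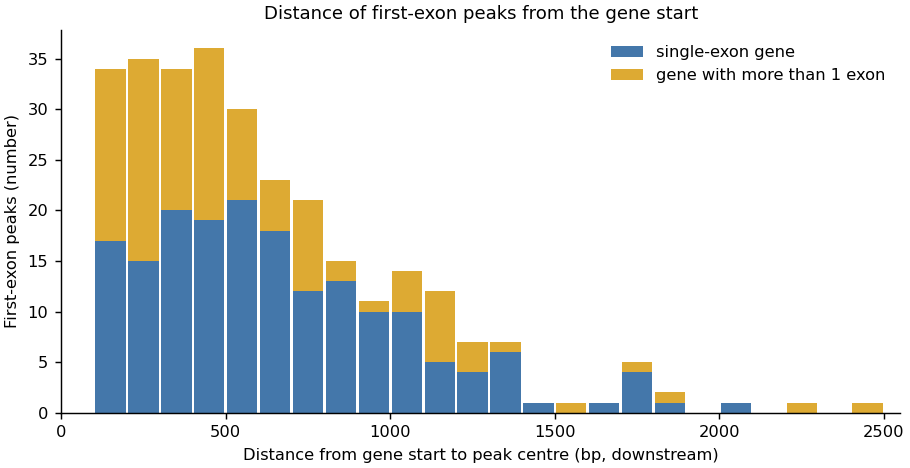
Number of first-exon peaks (vertical axis) by distance from the gene start to the peak centre in steps of 100 bp (horizontal axis), stacked for single-exon genes and genes with more exons. Each of the first 4 filled steps holds 34 to 36 peaks, and 12 of the 292 peaks lie beyond 1500 bp.

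The summit, the position of highest signal in a peak, stayed near the centre. Its median offset from the centre was 14 bp, with 174 of 292 summits within 20 bp and 50 more than 100 bp away. Peaks with a distant summit were wide, at a median of 859.5 bp against 495 bp for the rest. On either strand 287 summits were downstream of the gene start, and for the other 5 the side depends on the strand, which the annotation does not give directly. For 53 peaks, in 50 genes, the strand followed from the distances of 2 peaks assigned to the same gene start, with 25 genes on the plus and 25 on the minus strand. For 20 of these peaks both came from the DAP-seq annotation, and for 33 the second was a ChIP-seq peak from the annotation of that assay, of which only the distance to the gene start was used. In these the summit lay a median of 535 bp from the start (416 to 750), from 116 to 2420 bp, against 578 bp (443 to 739) for the centre. A few wide peaks moved by far more. The peak at *ABCG8*, 1402 bp wide, had its centre at 1208 bp and its summit at 1641 bp. At AT4G13180, with a peak of 1023 bp, the centre was at 146 bp and the summit at 414 bp. This peak is among the 5 above, and its inferred strand places the summit downstream of the start.

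Peak width had a median of 503 bp and ran from 386 to 1660 bp. Of the 292 peaks, 63 reached back across the gene start (21.6%, 17.0 to 26.7), so that the called interval included promoter DNA while its centre lay in the exon. There were 54 peaks wider than 700 bp, and their median fold enrichment was 3.94 against 3.20 for the narrower ones. Across the 292 peaks, Spearman's rho of fold enrichment was 0.403 with width and 0.171 with distance. These correlations describe peaks of 1 list, which share their libraries and caller.

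Fold enrichment in first exons lay in the range found elsewhere. It had a median of 3.30 (3.18 to 3.49) and ran from 1.93 to 9.29. The 379 peaks in later exons had a median of 3.43 (3.30 to 3.58), the 392 promoter-TSS peaks 3.29 (3.12 to 3.44) and all annotated peaks 3.28 (3.22 to 3.33). All of these intervals overlap that of the first exons. Within first exons, single-exon genes had 3.27 (3.11 to 3.52) and genes with more exons 3.32 (3.13 to 3.70). Among the 100 annotated peaks of highest fold enrichment, 17 were in first exons. The median −log10 p was 61.8 in first exons, 67.6 in later exons and 56.5 at promoter-TSS. The annotated rows are those with the highest −log10 p of the list, so weak peaks are missing from each of these groups.

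**Figure D3:**
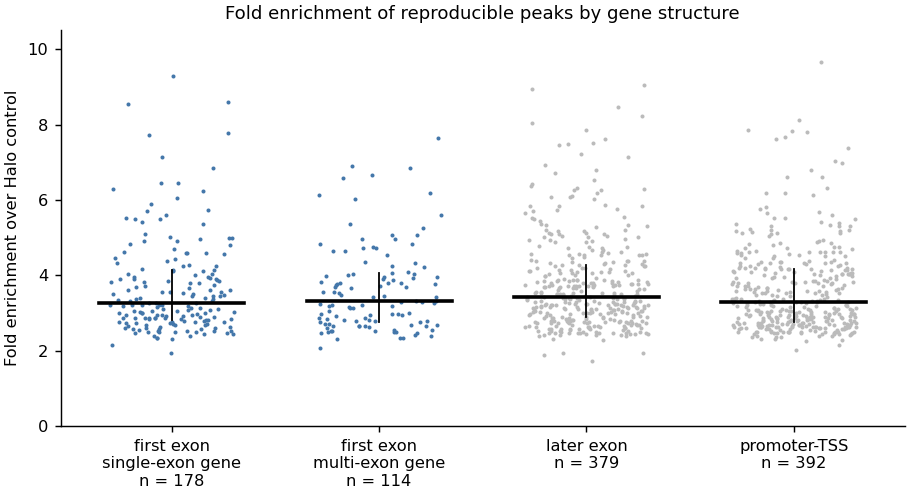
Fold enrichment over the Halo control (vertical axis) of each reproducible peak, as points, for first exons of single-exon genes, first exons of genes with more exons, later exons and promoter-TSS (horizontal axis). Thick lines are medians, 3.27, 3.32, 3.43 and 3.29 in that order, and thin lines span the middle 50% of peaks.

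Besides the reproducible list there were 3 lists from single ChCUC1 libraries, each called with the pooled Halo samples as control and a p-value limit of 0.01. They are the whole-library list, of 4778 peaks, and 2 lists from pseudoreplicates, which hold a random share of the reads of their library, with 3753 peaks (the longer) and 3253 peaks (the shorter). They carry no replicate number, their depth is unknown, and they are not independent of the reproducible list, so they show the spread of a value between calls and give no test. Counted at an overlap of at least 1 bp, the whole-library list held all 292 first-exon peaks (background over all annotated peaks 99.8%) and the longer pseudoreplicate list 286 (97.9%, background 96.7%). The shorter pseudoreplicate list held 214 (73.3%, 67.8 to 78.3, background 74.3%). All 3 held 209 first-exon peaks (71.6%, 66.0 to 76.7), against a background of 72.4%. That share is near the background.

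Which first-exon peaks were called in each list followed their fold enrichment. Ranked by fold enrichment and split into 4 groups of 73, the peaks of the top group, from 4.14 to 9.29, were all in each of the 3 lists. In the next groups 60, 46 and 30 of 73 were, which is 82.2%, 63.0% and 41.1%. Of the peaks called in fewer lists, 77 were missing from the shorter pseudoreplicate list alone and 5 from the longer alone. In single-exon genes 76.4% of peaks were in all 3 lists (69.5 to 82.4), in genes with more exons 64.0% (54.5 to 72.8) and in later exons 78.1% (73.6 to 82.2). The first of these intervals overlaps both of the others, which do not overlap each other. Summits moved little between lists, with median shifts from the reproducible summit of 5 bp for the whole-library list and 8 and 11 bp for the longer and shorter pseudoreplicate lists. Called widths differed more. Calls at these peaks had a median width of 494 bp when made on the whole library, 668 bp on the longer pseudoreplicate list and 219 bp on the shorter.

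**Figure D4:**
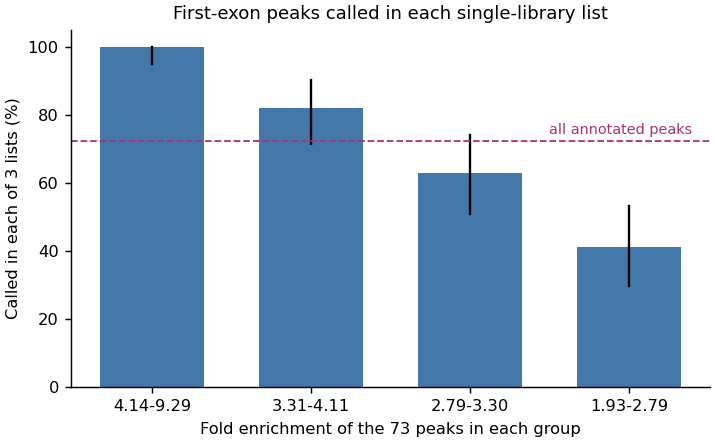
Share of first-exon peaks called in each of the 3 single-library lists (vertical axis, in percent) by fold enrichment (horizontal axis, 4 groups of 73 peaks), with 95% exact binomial intervals as lines. The share is 100% in the highest and 41.1% in the lowest group, and the dashed line marks the 72.4% of all annotated peaks.

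The 10 first-exon peaks of highest fold enrichment, from 6.84 to 9.29, were each called in all 3 lists, and 7 of them were in single-exon genes. The highest was in AT3G26782 (CARHR147870), a pentatricopeptide repeat protein, on chromosome 5 from 2151345 to 2151867, in the coordinates of the peak lists, for which the sources used here name no genome build. Its fold enrichment was 9.29 in the reproducible list, 9.18 for the whole library, and 8.44 and 10.2 for the longer and shorter pseudoreplicate lists. Its centre was 1734 bp from the start. AT1G49470 (CARHR039470) followed with 8.61, and 7.87, 7.90 and 8.38 in the same 3 lists, at 620 bp. The lectin receptor kinase *AP4.3A* (CARHR126740) had 8.55, and 8.87, 8.19 and 7.91, at 1746 bp. In all 3 genes the lowest list value was above 7, far over the median of first-exon peaks.

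The next were AT5G03435 with a fold enrichment of 7.78 and AT3G23820, an epimerase that makes a sugar precursor of pectin, with 7.71. The cysteine-rich receptor kinase *CRK41* had 7.64 in the first of 7 exons, 399 bp from the start, and 7.18, 7.77 and 7.84 in the single-library lists. The unmatched genes CARHR154890 and CARHR085150 had 7.14 and 6.90. *UGT74E2*, which in *A. thaliana* joins glucose to the auxin precursor indole-3-butyric acid, had 6.85 in the first of 2 exons, with 6.66, 6.53 and 5.83 in the 3 lists. *ABCG8*, a membrane transporter, had 6.84, with 6.95, 8.24 and 5.74. At the other end were CARHR131260 with 1.93, CARHR120210 with 2.08 and CARHR289340 with 2.15. The first and second of these were still called in all 3 lists, at 1.98, 1.88 and 2.05 and at 2.13, 2.03 and 2.07. The third had 2.21 and 1.87 in the whole-library and longer pseudoreplicate list and no call in the shorter one. Despite its low fold enrichment, CARHR131260 had a −log10 p of 64.2, near the median of 61.8 of first-exon peaks.

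The gene families below are given against a background over all genes with an annotated peak, of which 289 of 1876 (15.4%) had one in the first exon. The family lists were drawn up with the members known, so a share above this background describes the genes listed and is no result about the family. Auxin genes were among the members. Of the kinases PINOID and WAG, which phosphorylate PIN auxin transporters, *WAG1* and *WAG2* were the members with an annotated peak, and both peaks were in the single exon of the gene. *WAG2* had a fold enrichment of 5.73 and *WAG1* of 4.01, and both values fell in the same order over the lists, with 6.27, 4.77 and 3.88 at *WAG2* and 4.37, 3.94 and 3.04 at *WAG1* in the whole-library, longer and shorter pseudoreplicate list. The 2 summits, with the strand taken from a ChIP-seq peak of each gene, lay 526 bp from the start in *WAG2* and 546 bp in *WAG1*.

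The YUC enzymes carry out the last step of auxin synthesis from tryptophan. Of 11 listed YUC genes, *YUC3*, *YUC7* and *YUC8* had an annotated peak, and each of these had one in the first exon. *YUC7* had a fold enrichment of 3.77, with 3.90 and 3.77 in the whole-library and longer pseudoreplicate list and no call in the shorter one. *YUC8* had 2.86, with 2.87, 3.22 and 3.21, and *YUC3* had 2.79, with 2.84, 2.76 and 2.76. The centres of the *YUC3* and *YUC7* peaks were both 361 bp from the start in the first of 3 exons. *YUC7* had a further peak 5641 bp upstream of the start, with 4.24. Of the Aux/IAA proteins, repressors of the auxin response, *IAA2* had a first-exon peak at 119 bp with 4.65, and 4.62, 4.52 and 3.82 in the single-library lists. *IAA19*, *IAA26* and *IAA30* had their peaks in an intron, at promoter-TSS and in the transcript-end category.

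Receptor kinases with leucine-rich repeats that bind secreted peptides gave 9 first-exon peaks in 8 genes. All 8 of the 25 listed genes with an annotated peak had one in the first exon, and all had it in the first of 2 exons, from 428 to 2446 bp behind the start. *BAM1* and *BAM3*, receptors of CLE peptides, had fold enrichments of 4.25 at 1818 bp and 4.64 at 1715 bp. In the single-library lists *BAM1* had 3.89, 3.51 and 4.55, and *BAM3* had 5.10, 4.24 and 4.35. *GSO1*, which with *GSO2* perceives the peptides that guide the root and seed barriers, had 5.08 at 1240 bp, with 5.21, 4.30 and 4.06 in the lists. *GSO2* held a pair of peaks in the same exon. That at 1125 bp had 4.32, with 4.35, 4.62 and 3.08, and that at 2446 bp had 2.94, with 2.55, 3.10 and 2.54. The stronger of the pair was thus nearer to the start in each list. A further *GSO2* peak, with 2.76, was in the transcript-end category.

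*RGI1*, *RGI2* and *RGI5*, receptors of root meristem growth factor peptides, had 3.46, 2.87 and 2.49, and *CEPR1*, a receptor of CEP peptides, had 2.47. None of these 4 peaks was called in the shorter pseudoreplicate list. Outside first exons, *RGI2* had a stronger peak in a later exon, with 3.17 at 3422 bp, and *BAM3* a further peak 3979 bp upstream of the start with 2.85.

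Cysteine-rich receptor kinases, a large family with genes of 6 or 7 exons here, had 5 of 11 genes with an annotated peak in the first exon. After *CRK41* came *CRK25* with 4.98 and *CRK31* with 4.23, both called in all 3 lists, and then *CRK27* with 2.97 and *CRK13* with 2.96. Of the 5 centres, 4 lay within 376 to 429 bp of the start, and that of *CRK31* lay at 739 bp. Among the CrRLK1L receptor kinases, a family of cell wall sensors, the members were AT5G59700 with 2.99 and *CVY1*, which shapes leaf hairs in *A. thaliana*, with 2.77.

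**Figure D5:**
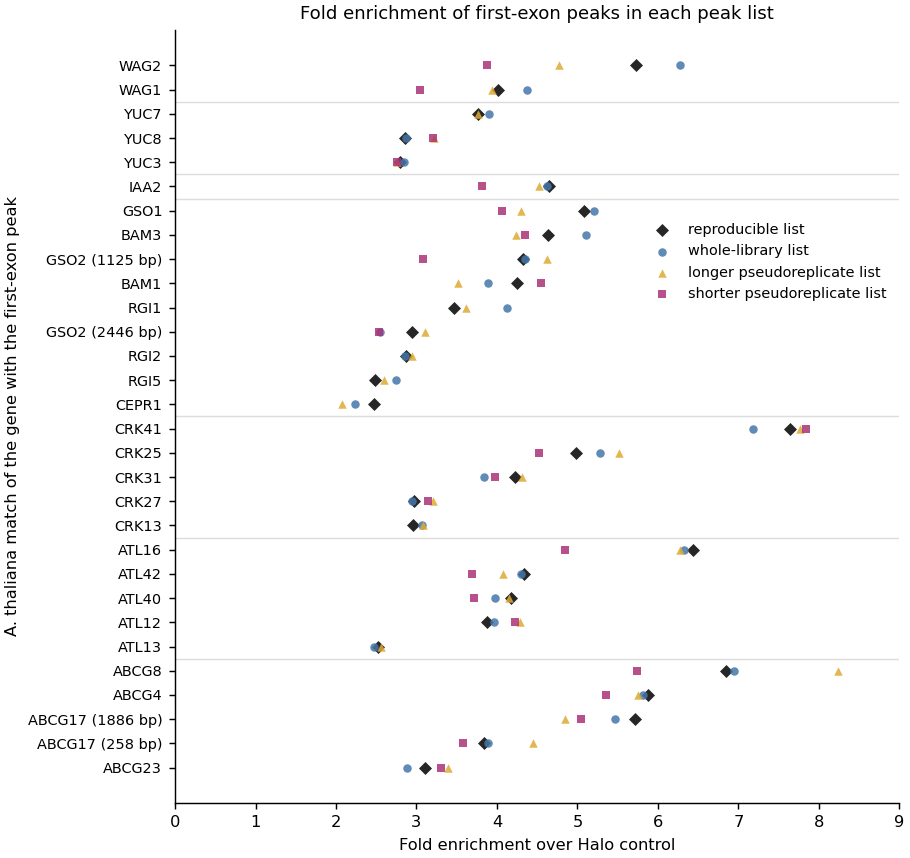
Fold enrichment over the Halo control (horizontal axis) of first-exon peaks in 7 gene families, from top to bottom WAG kinases, YUC enzymes, Aux/IAA, peptide receptor kinases, cysteine-rich receptor kinases, ATL ligases and ABCG transporters, in the reproducible list and each single-library list. A missing square means no call in the shorter pseudoreplicate list, as at *YUC7*, *RGI1*, *RGI2*, *RGI5*, *CEPR1*, *CRK13* and *ATL13*.

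Transporters and ubiquitin ligases followed. Of 9 half-size ABCG transporter genes with an annotated peak, 4 had it in the exon of a single-exon gene, with 5 peaks in all. The median of these 5 peaks, 5.72, was above the 3.30 of all first-exon peaks and is no value for the family. Annotated peaks of listed ABCG genes outside first exons ran from 2.53 at *ABCG16* to 6.43 at *ABCG11*. Besides *ABCG8*, *ABCG4* had 5.88, with 5.82, 5.75 and 5.35 in the lists, and *ABCG23* had 3.11, with 2.88, 3.39 and 3.31. *ABCG17* had peaks at 258 bp with 3.84 and at 1886 bp with 5.72, and a further peak 1707 bp upstream of the start with 6.18. In *ABCG17* the peak far from the start was thus the stronger one, and in each single-library list too, at 5.47, 4.84 and 5.05 against 3.89, 4.45 and 3.58. The ABCC transporters, of which several carry conjugates into the vacuole, had first-exon peaks in *ABCC14* with 3.67, *ABCC10* with 3.01 and *ABCC4* with 2.65.

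The ATL proteins are ubiquitin ligases of the RING-H2 type, encoded by single-exon genes here. All 5 listed members with an annotated peak had it in the exon. *ATL16* had 6.44, with 6.33, 6.28 and 4.85, and *ATL42*, *ATL40* and *ATL12* had 4.34, 4.17 and 3.88. *ATL13* had 2.52 and was missing from the shorter pseudoreplicate list.

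Enzymes of specialised metabolism made up the other groups. Of 10 UDP-glycosyltransferase genes with an annotated peak, 7 had it in the first exon, with a median of 3.49. After *UGT74E2* these were *UGT72E2*, which glucosylates lignin precursors, with 3.72, *UGT71B6*, which acts on abscisic acid, with 3.68, *UF3GT*, which adds xylose to anthocyanins, with 3.49, *UGT84A3* with 3.18 and *UGT79B6* with 2.91. The lowest, *UGT73C1*, had 2.87. Of these 7 only *UF3GT* was missing from a list. *KCS12*, *KCS1* and *KCS5*, which lengthen fatty acids for waxes and suberin, had 3.27, 3.06 and 2.40. Berberine bridge enzyme-like oxidases were AT5G44360 with 4.91, AT1G26390 with 3.45 and AT4G20800 with 2.68. *4CL5*, a 4-coumarate CoA ligase of lignin synthesis, had 5.07 in the first of 5 exons, *CYP83B1* of indole glucosinolate synthesis 2.66 and *MAX4* of strigolactone synthesis 2.63. The 15 lists together held 51 of the 292 peaks, so most first-exon peaks lay in genes outside them.

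Apart from *ABCG17* and *GSO2*, CARHR025540 was the third gene with a pair of first-exon peaks. They lay at 446 and 1317 bp in its single exon, with 2.86 and 2.49, and both were in all 3 lists. In 18 member genes an annotated peak of another category was found as well, most often in the transcript-end category (6 genes) or the intergenic category (5 genes). That category does not always mean the end of the member gene. In CARHR127090 and CARHR107330 such peaks lay 114 and 427 bp from the start, nearer than the first-exon peaks at 891 and 1209 bp. *CRK31* had a promoter-TSS peak 754 bp upstream of the start with 3.84, beside 4.23 in the exon.

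Some members were on the list of 28 high-confidence targets, which was drawn up with these peaks and is not independent of them. Of 24 targets with an annotated peak, 9 had it in the first exon, all in single-exon genes, beside 15.4% of all genes with an annotated peak. Besides *WAG2*, *WAG1*, *UGT72E2* and *UF3GT* these were AT2G15760 with 5.10, AT4G23030, a MATE-type efflux carrier, with 3.79, AT4G13180 with 3.68, AT4G19460 with 3.46 and *AR781* with 3.27. At AT2G15760 the single-library lists had 5.40, 4.55 and 3.46, and at AT4G23030 4.06, 4.13 and 3.14. All 9 values were near or above the median of first-exon peaks, and 8 of the 9 peaks were in all 3 lists (background 72.4%). Of the 289 member genes, 74 were also on the list of genes bound by ChCUC1 in both DAP-seq and ChIP-seq (25.6%, 20.7 to 31.0), against 18.2% (16.5 to 20.1) of the genes of all annotated peaks. The share was 31.8% (25.0 to 39.2) for single-exon genes, 15.9% (9.72 to 24.0) for genes with more exons, 19.0% (15.2 to 23.4) for later exons and 9.72% (6.97 to 13.1) for promoter-TSS.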

How the data were processed

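The authors aligned the reads and called the peaks with Bowtie, MACS2 and bedtools, per the submitters' processing notes, with versions and build not given in the sources used here. Among deposited values, fold enrichment (a ratio over the Halo control), the −log10 of the p-value, the summit and the scaled reproducibility score (top value 1000) are the authors' own. Reads and counts were not used, so depth is unknown and intervals cover counting over peaks only. Peaks were joined to the annotation sheet by chromosome, start and end (1997 of 2432), which gave gene, exon number, *A. thaliana* match and distance from gene start to peak centre. Shares have 95% exact binomial intervals, and medians have intervals from order statistics. The matching, strand and interval steps were tested on simulated data. Python 3.11.15, pandas 2.3.3, NumPy 2.4.6, SciPy 1.17.1 and matplotlib 3.10.9 were used.

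No test was run, because peaks are not replicates. Genes named are the 10 peaks of highest and 3 of lowest fold enrichment, the 3 nearest and 3 farthest, genes with 2 first-exon peaks, the targets and up to 6 members of each of 15 lists (308 genes). *UGT73C1*, *RGI2*, *RGI5*, neighbouring genes and the members' other peaks were named after their values were seen. Members and lists were chosen with earlier results of these data known. Alternatives were a top score, the upper 50% by fold enrichment, gene structure, the summit as position, other overlaps and each list left out.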

Additional observations from a re-analysis of the deposited data

How the results depend on the processing

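Of 27 alternative values, 18 lay within the 95% interval of the reported median or share or, for the number of peaks, within 1.5 times of it. With the top score alone there were 258 peaks, with a median fold enrichment of 3.49 and 76.4% in all 3 lists, and with the upper 50% by fold enrichment the median distance was 582 bp, at the edge of its interval. Limiting the annotated peaks to the upper 50% by fold enrichment left 148 first-exon peaks, with a median of 4.11 and 90.5% called in all 3 lists, which that limit itself selects for. In genes with more than 1 exon the median distance was 430.5 bp and the share in all 3 lists 64.0%. The share in all 3 lists depended most on what counts as shared. It was 15.4% at an overlap of 50% of both peaks (background 16.7%), 65.4% for summits within 100 bp and 54.1% with the upper 50% of each list. Calls in the shorter pseudoreplicate list had a median width of 219 bp, against 503 bp for the first-exon peaks. Many of those calls are too narrow for an overlap of 50%, whatever their position. Leaving out each list in turn gave 71.6% to 97.9%, the highest without the shorter pseudoreplicate list, so that list sets the share of 71.6%. No paired analysis was possible because the lists carry no replicate numbers and no test was run. Depth is unknown, so a peak missing from a list cannot be told apart from one below detection. The 435 peaks without a row in the copy of the annotation read here have lower −log10 p, and first-exon peaks among them were not analysed.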

Other observations

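Some first-exon peaks came in neighbouring genes. Within 10 kb of each other lay 19 pairs of peaks in adjacent or near genes, with 37 genes in all, and in 17 pairs both genes had the same number of exons. In 8 pairs the distances from the start differed by less than 100 bp. No background over other pairs of peaks was computed, so these counts are no result about first-exon peaks. Equal exon numbers are also frequent among the members at large, since 178 of the 292 peaks were in single-exon genes. On chromosome 7, AT4G29690, AT4G29700 and CARHR237560 stood in a row with centres at 918, 1005 and 884 bp and fold enrichments of 2.51, 2.94 and 2.83. Both named genes belong to a family of alkaline phosphatase-like proteins. On chromosome 8, *CRK31* and CARHR255080, each with 6 exons, had peaks at 739 and 728 bp with 4.23 and 2.77. *UGT79B6* and *UF3GT* lay 3620 bp apart by their summits, with 2.91 and 3.49. Signals of neighbours could differ widely. AT1G49470 had 8.61 and its neighbour AT1G49450 had 2.49, and CARHR085150 had 6.90 beside 3.75 in CARHR085140.

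By chromosome, first exons held from 9.89% of the annotated peaks on chromosome 2 (18 of 182, 5.97 to 15.2) to 19.2% on chromosome 7 (46 of 240, 14.4 to 24.7), and these intervals overlap.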
